A study of Rattus norvegicus with 12 samples.

Results

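The genes described here encode nuclear-encoded protein subunits of the mitochondrial respiratory chain and the ATP synthase, measured in rat liver. They were chosen by symbol in the annotation of the array: symbols starting with Ndufa, Ndufb, Ndufc, Ndufs or Ndufv (but not Ndufaf), Sdha to Sdhd, and symbols starting with Uqcr, Cox4 to Cox8 or Atp5. This gave 80 of the 14217 genes that have a probe set of their own. They comprised 36 genes of complex I, 4 of complex II, 7 of complex III, 17 of complex IV and 16 of complex V. Each gene is represented by its probe set with the highest mean over the 12 arrays, so no difference between groups entered the choice. Of the 80 genes, 77 lay above the dimmest 30% of probe sets and were tested. The 3 genes left out were Cox6b2 and Cox7b2, isoforms best known from testis, and Cox8b, an isoform of heart, skeletal muscle and brown fat. Cox6c-ps1, which carries the symbol of a pseudogene, matched the rule and was kept.

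The arrays measured liver RNA of adult male Sprague-Dawley rats aged 10 weeks, with 1 rat on each array. The treated groups of 3 rats each received a triazole fungicide by gavage at intervals of 24 h during an exposure of 72 h. Myclobutanil and propiconazole were both dosed at 300 mg/kg/day, whereas the triadimefon group received 175 mg/kg/day. A further 3 rats formed the control group, and the labels do not say what these rats received. Each comparison with control rests on the same 3 control arrays, so the 3 comparisons are not independent of each other.

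Complexes I and II pass electrons from NADH and succinate to ubiquinone, complex III passes them on to cytochrome c, and complex IV reduces oxygen. Complexes I, III and IV pump protons across the inner mitochondrial membrane, and ATP synthase, called complex V, uses the gradient to make ATP. Hepatocytes are rich in mitochondria and use this ATP for gluconeogenesis, urea synthesis and protein secretion. A few subunits of complexes I, III, IV and V are encoded in mitochondrial DNA and are not among these genes.

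Values are the authors' deposited scores after quantile normalization. They behave like a logarithm whose base is not stated, so differences are given in these log-like units and not as folds, and levels of different probe sets are not compared. Differences are treated minus control ± SE from limma, and a gene was called at a Benjamini-Hochberg adjusted p under 0.05 over all 21729 probe sets tested. The array of myclobutanil rat 01 stood apart, with a median score before normalization of 0.157, while the remaining 11 arrays had medians of 0.0182 to 0.0552. The differences and counts with myclobutanil were therefore also computed without it, and are given where this changed a call or moved one of the larger differences below by over 1.5 times. As a measure of RNA quality, the deposited score of the GAPDH 3′ control probe set minus that of the 5′ one averaged 0.659 ± 0.252 (SD, n = 3) over the control arrays, 0.624 ± 0.128 over those of myclobutanil, 0.434 ± 0.106 for propiconazole and 0.587 ± 0.212 for triadimefon. The same difference for beta-actin averaged 0.682 ± 0.202, 0.807 ± 0.145, 0.636 ± 0.0925 and 0.838 ± 0.2 in that order, and in both genes each treated group overlapped control. The 12 hepatocyte markers on the array had summed scores of 35.9 to 37.6 in control livers and 33.2 to 36.6 after myclobutanil, with 36.2 to 37.9 after propiconazole and 36.1 to 37.3 after triadimefon. Of these markers, 1 was called higher with propiconazole and 0 with the other compounds, or 1 higher with each compound without myclobutanil 01. With myclobutanil the differences of 10 of the 12 were below 0 and that of 1 above. Kupffer cell and macrophage markers, 9 on the array, summed to 9.81 to 11.3 in control and 2.13 to 7.33 in myclobutanil livers, and 5 of the 9 fell with myclobutanil, or 9 of the 9 without myclobutanil 01 and from 0 to 9 over the 12 fits that left out 1 array. Their sums were 9.31 to 10.5 with propiconazole and 9.14 to 10.5 with triadimefon. The sums of 6 endothelial markers were 5.12 to 5.76 in control, and lower with myclobutanil (4.34 to 4.77, 1 marker fell) and propiconazole (3.71 to 4.5, 2 fell), with 4.75 to 5.16 for triadimefon. The 9 leukocyte markers summed to 0.531 to 0.659 in control and to -0.0443 to -0.0335 with myclobutanil, 0.0225 to 0.431 with propiconazole and 0.224 to 0.517 with triadimefon, and none was called. The 6 cholangiocyte markers summed to 1.26 to 1.48 in control and to 1.65 to 2.54, 1.64 to 2.47 and 1.49 to 2.27 with myclobutanil, propiconazole and triadimefon, with no call. The 3 blood cell markers summed to 3.06 to 3.26 in control, and in the same order to 1.96 to 2.99, 2.65 to 3.88 and 2.44 to 4.1. The 9 stellate cell markers summed to 4.59 to 5.59 in control, and in that order to 4.43 to 5.71, 4.16 to 4.71 and 5.11 to 8.21. With myclobutanil 1 stellate marker was called higher and 1 lower, with propiconazole 1 lower, and with triadimefon none. In bulk liver, fewer cells of a type and less RNA per cell cannot be told apart. Of the markers of tissues that use the muscle and brown fat isoforms of complex IV, 5 of 9 striated muscle genes and 3 of 4 brown fat genes were left out as dim.

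After 72 h of exposure to the triazoles, 1 or none of these subunit genes was called in each comparison with control. The share of all probe sets called was also low, and a gene without a call is not shown to be unchanged. With myclobutanil 1 of 77 genes was called, the ATP synthase inhibitor gene Atp5if1, which rose, while 1.82% of all probe sets were called in that comparison. With propiconazole none of the 77 was called, against 1.43% of all probe sets (176 higher and 135 lower, or 158 and 63 after median centring), and with triadimefon none, against 0.769%. Without multiple-test adjustment, limma p-values under 0.05 were found with myclobutanil for 2 genes above control and 8 below, against 9.2% and 11.9% of all probe sets. With propiconazole they were found for 1 gene above and 2 below, against 7.73% and 6.78%, and with triadimefon for 0 above and 5 below, against 7.02% and 6.42%. The 95% confidence interval of a member's difference reached a median of 0.21 units to either side with myclobutanil and with propiconazole, and 0.215 with triadimefon. Over all members the interval bounds ran from -0.75 to 0.72 with myclobutanil, from -0.46 to 0.56 with propiconazole and from -0.6 to 0.46 with triadimefon.

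**Figure D1:**
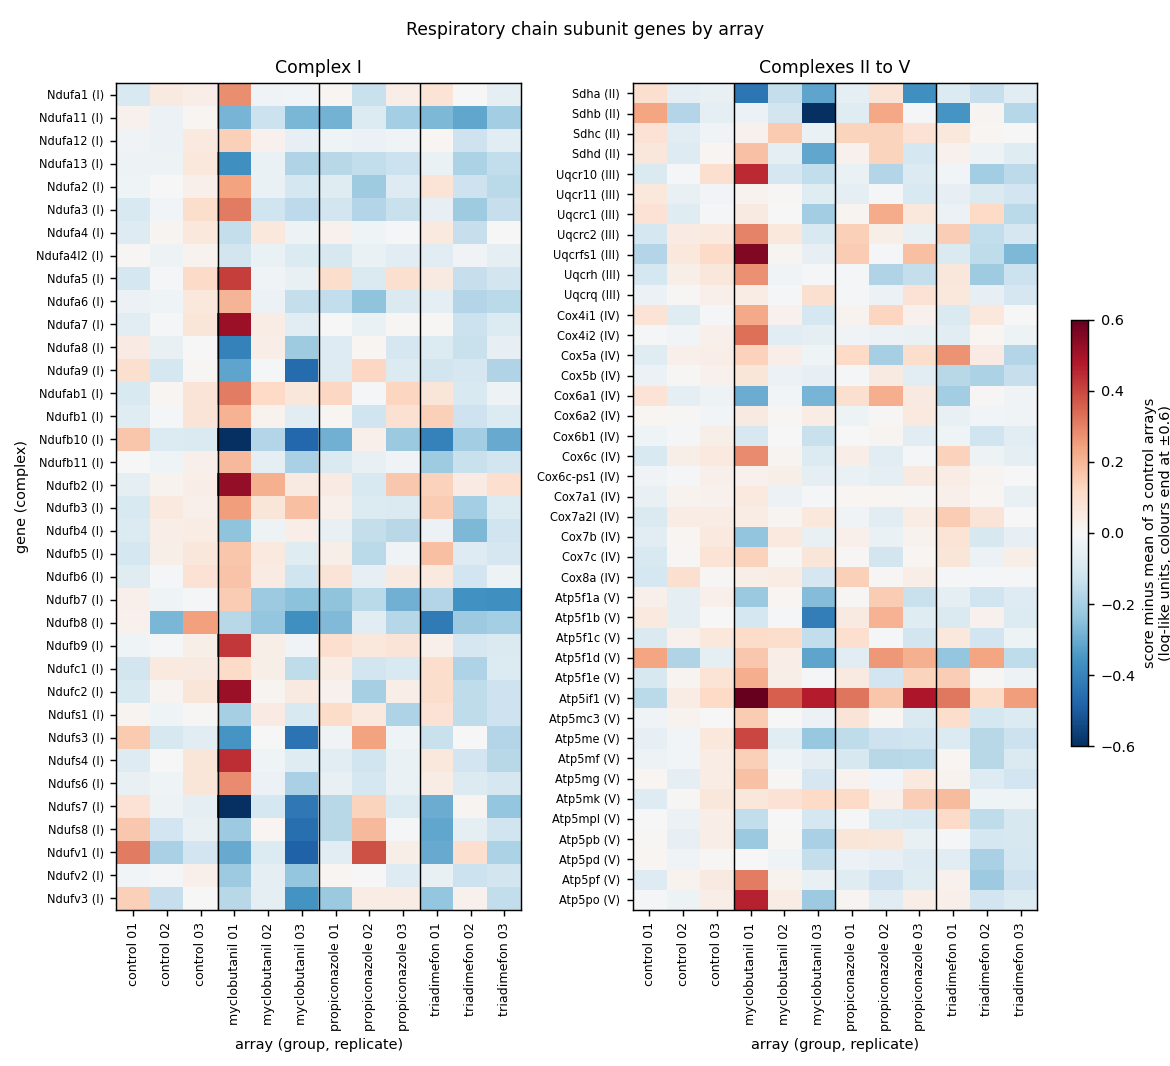
Scores of the 77 tested genes on each of the 12 arrays, minus the mean of the 3 control arrays, in log-like units (colour scale; colours end at ±0.6); rows are genes with their complex in brackets, and columns are arrays grouped by treatment. Atp5if1 is above the control mean on all 9 treated arrays, and the myclobutanil arrays differ among themselves, from a median over all genes of 0.115 on array 01 to -0.0986 on array 03.

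Atp5if1 encodes the inhibitory factor of the F1 domain, which blocks ATP hydrolysis by the synthase when the membrane potential falls. Its scores were 0.66, 0.87 and 0.95 in control livers, 1.44, 1.18 and 1.30 with myclobutanil, 1.15, 0.99 and 1.31 with propiconazole, and 1.14, 0.94 and 1.08 with triadimefon. All myclobutanil and all propiconazole arrays lay above all controls, whereas the lowest triadimefon array fell just under the highest control. The rise with myclobutanil was 0.48 ± 0.107 (limma adjusted p = 0.0478, n = 3 rats per group). The difference with propiconazole was 0.32 ± 0.107 (limma adjusted p = 0.184) and with triadimefon 0.23 ± 0.107 (adjusted p = 0.391), neither of them called.

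The gene has 3 probe sets on the array, and all of them were above control with myclobutanil. The brightest gave the values above. A second differed by 0.36 ± 0.0854 (limma adjusted p = 0.0592), with scores of 0.07, 0.28 and 0.14 in control and 0.59, 0.36 and 0.63 in myclobutanil livers. The third, whose ID is marked for probes that may also match other transcripts, differed by 0.55 ± 0.148 with myclobutanil (limma adjusted p = 0.0813) but by -0.12 with both propiconazole and triadimefon. The call lies close to the threshold: the adjusted p was between 0.052 and 0.15 in 11 of the 12 fits that left out 1 array, that is, without any array other than myclobutanil 02. Without myclobutanil 01 the difference was 0.42 with an adjusted p of 0.0705, and the difference itself stayed between 0.40 and 0.55 over these 12 fits.

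**Figure D2:**
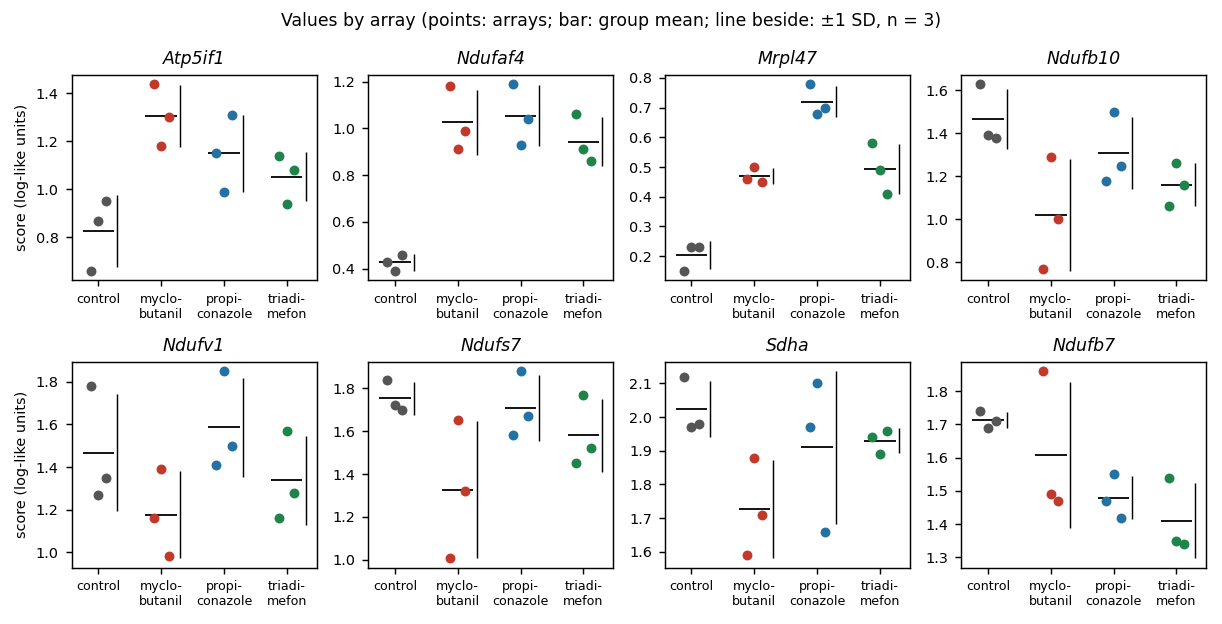
Scores (log-like units) of 8 genes by treatment group; points are the 3 arrays of a group, horizontal bars the group means, and vertical lines ±1 SD. For Ndufaf4 and Mrpl47, which are not subunits but serve the chain, all 9 treated arrays lie above all 3 control arrays; for Ndufb10, Ndufs7 and Sdha all myclobutanil arrays lie below the controls, without a call.

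In complex I, none of the 36 genes was called with any compound. Its 6 measured core subunits, the ones conserved from bacteria that carry the electron path, had differences below 0 in 6 of 6 genes with myclobutanil, with a median of -0.243 (range -0.42 to -0.08), while the 30 accessory subunits had a median of 0.0153, with 18 above and 12 below 0. Over all probe sets tested the median was -0.0135. With triadimefon the core subunits were again below 0 in 6 of 6 genes, with a median of -0.117, and with propiconazole 3 were above and 3 below. Leaving out 1 array at a time moved the myclobutanil median to between -0.366 without myclobutanil 02 and -0.158 without control 01, with -0.16 without myclobutanil 03 and -0.22 without myclobutanil 01. With array weights in the fit it was -0.0514. On the deposited values the core median was -0.296 and after median centring -0.318, beside -0.118 and -0.14 over all of complex I. The accessory subunits, relative to the control mean, had medians of 0.184, -0.023 and -0.0941 on myclobutanil arrays 01, 02 and 03.

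Ndufv1 binds NADH and the flavin that first takes up its electrons. It scored 1.78, 1.27 and 1.35 in control, 1.16, 1.39 and 0.98 with myclobutanil, 1.41, 1.85 and 1.5 with propiconazole, and 1.16, 1.57 and 1.28 with triadimefon. The groups overlapped, and its difference with myclobutanil was -0.29 ± 0.168 (limma adjusted p = 0.341). Ndufs7, which holds the iron-sulfur cluster that hands electrons to ubiquinone, scored 1.84, 1.72 and 1.70 in control and 1.01, 1.65 and 1.32 with myclobutanil. The 3 myclobutanil arrays lay below the 3 controls, but array 02 only narrowly, and the difference of -0.42 ± 0.149 was not called (limma adjusted p = 0.144); without myclobutanil 01 it was -0.26. Ndufv2, an iron-sulfur subunit next to Ndufv1, was likewise below all controls with myclobutanil, at -0.17 ± 0.0713 (adjusted p = 0.208). Ndufs3 differed by -0.27, Ndufs8 by -0.22 and Ndufs1 by -0.08, and for these 3 the arrays of both groups overlapped.

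Among the accessory subunits, Ndufb10 of the membrane arm had the largest difference below control with myclobutanil and also with triadimefon. It scored 1.63, 1.39 and 1.38 in control, 0.77, 1.29 and 1.0 with myclobutanil, 1.18, 1.5 and 1.25 with propiconazole, and 1.06, 1.26 and 1.16 with triadimefon. All arrays of myclobutanil and of triadimefon lay below all controls, and the propiconazole arrays overlapped them. The differences were -0.45 ± 0.134 with myclobutanil (limma adjusted p = 0.107), -0.16 ± 0.134 with propiconazole (adjusted p = 0.642) and -0.31 ± 0.134 with triadimefon (adjusted p = 0.352). Without myclobutanil 02, whose value is the closest to control, Ndufb10 at -0.58 and Ndufs7 at -0.59 were called (limma adjusted p = 0.0323 and 0.039). In that fit 3 of the 77 genes and 924 of the 21729 probe sets were called, against 1 and 395 with all arrays.

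Ndufa11, another membrane-arm subunit, lay below all 3 controls in all 9 treated livers. Its control scores were 1.99, 1.92 and 1.97, against 1.68, 1.83 and 1.69 with myclobutanil, 1.68, 1.88 and 1.76 with propiconazole, and 1.69, 1.65 and 1.75 with triadimefon. The differences were -0.23, -0.19 and -0.26 ± 0.0769, with limma adjusted p of 0.131, 0.284 and 0.165, so no compound gave a call. This gene lies outside the rule for naming genes and was chosen after its values were seen.

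Ndufb7, an accessory subunit facing the intermembrane space, scored 1.74, 1.69 and 1.71 in control, 1.86, 1.49 and 1.47 with myclobutanil, 1.47, 1.55 and 1.42 with propiconazole, and 1.54, 1.35 and 1.34 with triadimefon. The propiconazole and triadimefon arrays lay below the controls, while myclobutanil 01 was the highest of all 12. Its differences were -0.23 ± 0.105 with propiconazole (limma adjusted p = 0.345) and -0.3 ± 0.105 with triadimefon (adjusted p = 0.246). With array weights the triadimefon difference was -0.33 and was called (adjusted p = 0.0212). In the other direction, the membrane-arm subunit gene Ndufb2 was above control by 0.27 ± 0.112 with myclobutanil (limma adjusted p = 0.206), and by 0.13 without myclobutanil 01, its highest array. The gene Ndufa4, grouped here by symbol although its protein is found in complex IV, differed by at most 0.04 from control in any group. Its hypoxia-induced relative Ndufa4l2 had scores of -0.04 to 0.09 over the 12 arrays.

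**Figure D3:**
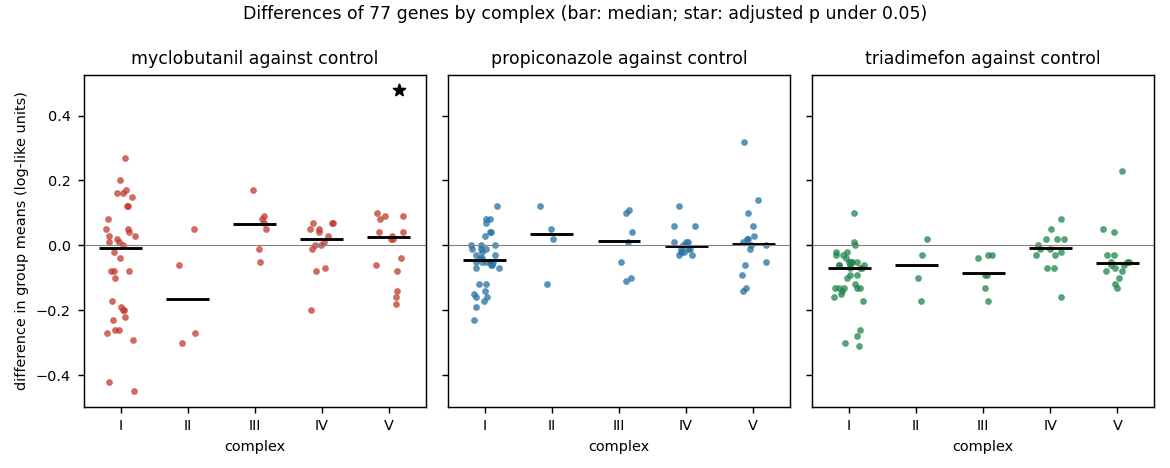
Differences of the 77 tested genes from control (log-like units, vertical axis) by complex (horizontal axis) for each compound; points are genes, bars the medians by complex, and the star is Atp5if1 with myclobutanil, the 1 called gene. With triadimefon 65 of the 77 points lie below 0, against 56.6% of all probe sets. With myclobutanil 43 lie above 0, against 44.6% of all probe sets. This majority turns into 63 below 0 on the deposited values and 64 below 0 after median centring. Under these scalings the medians over all probe sets are 0.00367 and -0.0181.

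Complex II, succinate dehydrogenase, is also an enzyme of the tricarboxylic acid cycle, and none of its 4 genes was called. Sdha, the flavoprotein that oxidizes succinate, scored 2.12, 1.97 and 1.98 in control, 1.59, 1.88 and 1.71 with myclobutanil, 1.97, 2.10 and 1.66 with propiconazole, and 1.94, 1.89 and 1.96 with triadimefon. The myclobutanil arrays lay below the controls, the triadimefon arrays just below them, and the propiconazole arrays spread across them. The differences were -0.3 ± 0.115 (limma adjusted p = 0.173), -0.1 ± 0.115 for triadimefon (adjusted p = 0.772) and -0.12 ± 0.115 for propiconazole (adjusted p = 0.7). Sdhb, the iron-sulfur subunit, differed by -0.27 ± 0.172 with myclobutanil and overlapped control, with its lowest score, 1.52, on myclobutanil 03. The membrane anchors Sdhc and Sdhd differed by 0.05 and -0.06 with myclobutanil, 0.12 and 0.02 with propiconazole, and 0.02 and -0.03 with triadimefon. The median of the 4 genes with myclobutanil was -0.165, and without myclobutanil 03 it was -0.00473.

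In complex III none of the 7 genes was called. Uqcrfs1, the Rieske iron-sulfur protein, scored 2.08, 2.32 and 2.37 in control, 2.81, 2.27 and 2.20 with myclobutanil, 2.41, 2.25 and 2.44 with propiconazole, and 2.17, 2.10 and 1.98 with triadimefon. Its difference of 0.17 ± 0.146 with myclobutanil came with 1 high array, 01, and 2 arrays inside the control range, and was -0.02 without array 01. The core protein genes Uqcrc1 and Uqcrc2 differed by -0.05 and 0.09 with myclobutanil, and Uqcrh, the hinge protein that contacts cytochrome c1, by 0.08. With triadimefon all 7 genes were below control, from -0.17 to -0.03, with a median of -0.085 and no limma adjusted p under 0.622.

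In complex IV, 14 of the 17 genes were tested and none was called. Cox4i1, the common isoform of subunit 4, scored 2.91, 2.76 and 2.82 in control, 3.06, 2.86 and 2.72 with myclobutanil, 2.85, 2.96 and 2.86 with propiconazole, and 2.74, 2.90 and 2.83 with triadimefon. The groups overlapped throughout, and the differences were 0.05, 0.06 and -0.01 ± 0.0868. Cox6a1, the isoform of liver, scored 2.22, 2.08 and 2.11 in control, 1.84, 2.12 and 1.86 with myclobutanil, and 2.23, 2.35 and 2.19 with propiconazole. Its difference from control was -0.2 ± 0.0966 with myclobutanil (limma adjusted p = 0.265) and 0.12 ± 0.0966 with propiconazole (adjusted p = 0.617). Cox5b, which binds zinc, was below all 3 controls on all 3 triadimefon arrays, at 2.25, 2.23 and 2.28 against 2.39, 2.43 and 2.45, a difference of -0.16 ± 0.065 (limma adjusted p = 0.305).

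None of the tested isoforms of other tissues was called with any compound. Cox6a2 and Cox7a1, the heart and muscle forms, scored -0.03 to 0.08 and -0.04 to 0.06 over the 12 arrays. Cox4i2, a form known from lung and induced by low oxygen, scored -0.02 to 0.08 on 11 arrays and 0.37 on myclobutanil 01. Cox8b, not tested, scored -0.26 to 0.01, with its highest value also on myclobutanil 01. Cox7a2l, which helps complexes III and IV to form supercomplexes, differed by 0.04, -0.02 and 0.08 with myclobutanil, propiconazole and triadimefon, Cox7c by 0.07, -0.03 and 0.02, and Cox8a by -0.01, 0.06 and -0.01, all with overlapping groups.

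In complex V, Atp5if1 was the 1 called gene of 16, and it is a regulator and not a structural subunit. Atp5f1b, the catalytic beta subunit, scored 2.89, 2.77 and 2.84 in control, 2.73, 2.83 and 2.42 with myclobutanil, 2.89, 3.04 and 2.76 with propiconazole, and 2.75, 2.86 and 2.75 with triadimefon. All groups overlapped with control, and the difference with myclobutanil, -0.18 ± 0.105 (limma adjusted p = 0.359), came with the low value of array 03. The alpha subunit gene Atp5f1a differed by -0.16 ± 0.0893 with myclobutanil. Atp5me and Atp5mf, small membrane subunits of the synthase, lay below all controls with propiconazole, by -0.13 ± 0.129 and -0.14 ± 0.0743, and the former also with triadimefon, by -0.13 ± 0.129, none of them called.

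After quantile normalization, the median of the subunit genes lay near that of all probe sets with propiconazole and below it with triadimefon. With myclobutanil the median over 77 genes was 0.0119 after quantile normalization but -0.121 on the deposited values and -0.142 after median centring, so it has no settled direction. Over all probe sets the medians were -0.0135, 0.00367 and -0.0181 in the same order. In the quantile-normalized data 43 genes were above and 34 below 0, against 44.6% and 55.4% of all probe sets. Without myclobutanil 01 the median was -0.0409, with 17 genes above and 60 below 0. Over all probe sets it was then -0.0121, with 9708 above and 12021 below 0. With propiconazole the median was -0.0126, beside -0.0123 over all probe sets, with 31 genes above and 46 below 0, against 43.4% and 56.6%. It was -0.0941 on the deposited values and -0.0779 after median centring, beside -0.0208 and -0.00459 over all probe sets. With triadimefon the median was -0.0584, beside -0.0128 over all probe sets, and 65 of 77 genes were below 0, against 56.6% of all probe sets. The triadimefon median was also below 0 under both other scalings, at -0.136 and -0.126, beside -0.0132 and -0.00262 over all probe sets. With any 1 array left out it lay between -0.0939 and -0.0345.

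Counts of genes whose treated and control arrays did not overlap were close to or under those of all probe sets. With myclobutanil 3 of 77 genes lay wholly above control and 7 wholly below, against 10.2% and 13.1% of all probe sets. With propiconazole 2 lay above and 11 below, against 12.1% and 15.7%. With triadimefon 1 lay above and 14 below, against 12.5% and 15.8%.

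The core subunits of complex I differed between arrays of 1 group, and measures of the RNA moved with them to an unequal extent. The median of the 6 core complex I genes, relative to the control mean, was -0.261, -0.028 and -0.435 on myclobutanil arrays 01, 02 and 03. On the triadimefon arrays the medians were -0.215, -0.0325 and -0.149, on those of propiconazole -0.0412, 0.165 and -0.0518, and on those of control 0.122, -0.0642 and -0.0497.

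The GAPDH 5′ probe set scored 1.24, 1.03 and 0.952 on the 3 arrays with core medians under -0.2, which are myclobutanil 01, myclobutanil 03 and triadimefon 01, and 1.19 on control 02, where the core median was -0.0642. GAPDH 3′ also had its lowest scores on those 3 arrays, at 1.92, 1.75 and 1.78. The 3′ minus 5′ difference of GAPDH was 0.677, 0.716 and 0.827 on the same 3 arrays, but 0.8 and 0.808 on control 02 and 03, where core medians were close to 0. That of beta-actin was 0.847, 0.928 and 1.06, and 0.889 and 0.671 on control 02 and 03. On the 2 arrays with core medians above 0.1, control 01 and propiconazole 02, the difference was 0.368 and 0.352 for GAPDH and 0.487 and 0.556 for beta-actin, the lowest 2 of the 12 arrays in both. The part of RNA quality, and of the cell type markers that moved with treatment, in these differences was not tested.

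**Figure D4:**
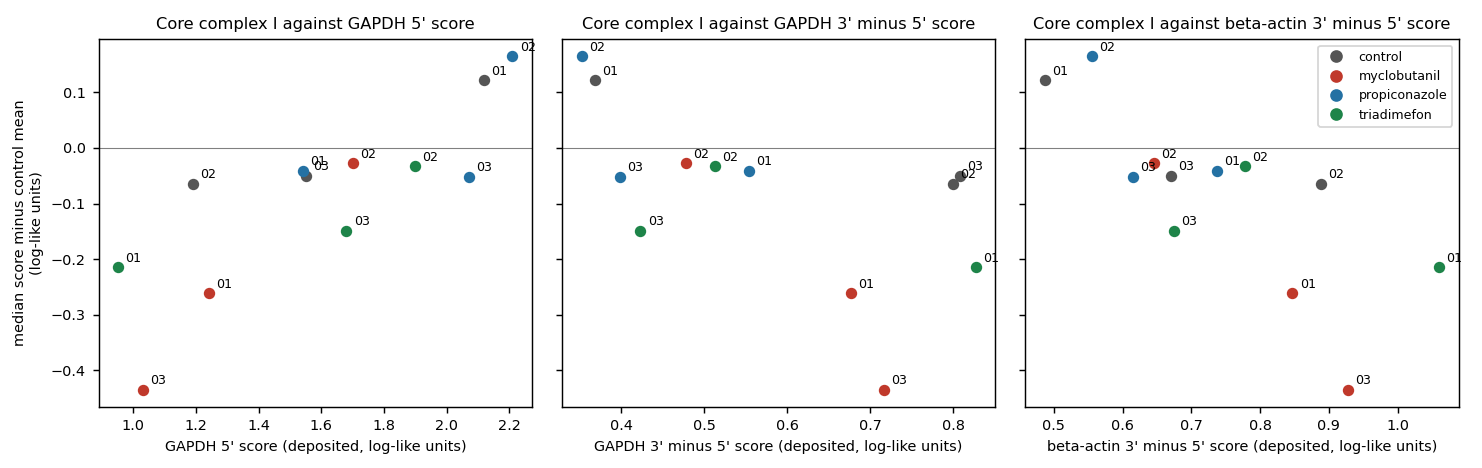
Median score of the 6 core subunit genes of complex I on each array, minus the control mean (vertical axis, log-like units), against deposited scores of control probe sets on the same array (horizontal axes, log-like units): GAPDH 5′ (left), GAPDH 3′ minus 5′ (middle) and beta-actin 3′ minus 5′ (right). Points are the 12 arrays, coloured by group and numbered by replicate; control 02 and 03 have GAPDH 3′ minus 5′ differences of 0.8 and 0.808, above the 0.677 and 0.716 of myclobutanil 01 and 03, whose core medians are the lowest.

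Myclobutanil, a nitrile, and propiconazole, which holds a dioxolane ring, were given at the same dose and time, and this was the 1 pair of compounds tested. None of the 77 genes differed by limma at an adjusted p under 0.05, as was the case for 0% of all probe sets. At an unadjusted p under 0.05, 1 gene was higher and 7 were lower with myclobutanil, against 4.86% and 5.26% of all probe sets, and 2200 of the 21729 probe sets passed in either direction. For Atp5if1 the difference was 0.16 ± 0.107, with a 95% confidence interval of -0.08 to 0.39 (0.09 without myclobutanil 01), so the groups are not shown to act alike. The largest difference was in Ndufv1, -0.41 ± 0.168 (interval -0.78 to -0.04, limma adjusted p = 0.478), and Cox6a1 differed by -0.32 ± 0.0966 (interval -0.53 to -0.11, adjusted p = 0.373). In both genes all myclobutanil arrays lay below all propiconazole arrays. Genes with such separated groups numbered 3 higher and 2 lower among the 77, against 6.31% and 7.13% of all probe sets. Of the 77 differences 44 were above and 33 below 0, against 46.9% and 53.1% of all probe sets. Over the 77 genes the intervals of the difference reached from -0.78 to 0.54. Triadimefon had a lower dose and was not tested against the others.

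Among genes that build and serve the chain, the assembly factor Ndufaf4 rose with all 3 compounds. Ndufaf4 takes part in the early steps that join the arms of complex I. It scored 0.43, 0.39 and 0.46 in control, 1.18, 0.91 and 0.99 with myclobutanil, 1.19, 0.93 and 1.04 with propiconazole, and 1.06, 0.91 and 0.86 with triadimefon. Every treated array lay above every control, with 0.86 the lowest treated and 0.46 the highest control score. The rises were 0.6 ± 0.0869 with myclobutanil, 0.62 ± 0.0869 with propiconazole and 0.52 ± 0.0869 with triadimefon (limma adjusted p = 0.0115, 0.0107 and 0.0212). The myclobutanil call was lost without control 03 (adjusted p = 0.0529), the propiconazole call without control 02 or 03 (adjusted p between 0.0508 and 0.0574), and the triadimefon call without any 1 of the control or triadimefon arrays (adjusted p between 0.0594 and 0.0943). Without myclobutanil 01 the difference with myclobutanil stayed called. Ndufaf4 was the 1 called gene of 40 tested assembly factors in each comparison with control, against 1.82%, 1.43% and 0.769% of all probe sets with myclobutanil, propiconazole and triadimefon. At an unadjusted limma p under 0.05, 12 assembly factors (30%) were higher and 2 lower with myclobutanil, against 9.2% and 11.9% of all probe sets. Without myclobutanil 01 they numbered 9 (22.5%) and 0, against 11.6% and 12.4%. With propiconazole 6 (15%) and 1 passed, against 7.73% and 6.78%. With triadimefon 3 (7.5%) and 0 passed, against 7.02% and 6.42%. Without myclobutanil 01, 3 assembly factors were called higher with propiconazole, where 969 of the 21729 probe sets were called.

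Of 73 genes of the mitochondrial ribosome, which makes the subunits encoded in mitochondrial DNA, Mrpl47 of the large ribosomal subunit rose with all 3 compounds. It scored 0.15, 0.23 and 0.23 in control, 0.46, 0.50 and 0.45 with myclobutanil, 0.78, 0.68 and 0.70 with propiconazole, and 0.58, 0.49 and 0.41 with triadimefon. No treated array overlapped the controls, and the propiconazole arrays were the highest. The rises were 0.26, 0.51 and 0.29 ± 0.0537 (limma adjusted p = 0.0403, 0.00475 and 0.0368). The propiconazole call held with any 1 array left out, whereas the myclobutanil call was lost in 9 of these 12 fits and the triadimefon call in 8, with adjusted p up to 0.125 and 0.165. Mrpl49, also of the large subunit, rose with myclobutanil by 0.34 ± 0.0706 (limma adjusted p = 0.0405), a call lost in 10 of the 12 fits, with adjusted p from 0.0533 to 0.165. No ribosomal protein gene of this list fell by the same test. Of the 73 genes, 2, 1 and 1 were called with myclobutanil, propiconazole and triadimefon, against 1.82%, 1.43% and 0.769% of all probe sets. With myclobutanil 47 of the 73 differences were above and 26 below 0, and with propiconazole 49 and 24. With triadimefon 20 were above and 53 below 0, against 43.4% and 56.6% of all probe sets.

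No gene was called with any compound in the tricarboxylic acid cycle (12 tested), among electron carriers and other entry points of electrons (7), regulators of respiratory genes and mitochondrial DNA (21), inner membrane carriers and uncoupling proteins (8) or mitochondrial antioxidant enzymes (6). In the cycle, 1 difference was above and 11 were below 0 with myclobutanil, 9 and 3 with propiconazole, and 2 and 10 with triadimefon. Of all probe sets 55.4%, 56.6% and 56.6% were below 0. At an unadjusted limma p under 0.05, the counts with myclobutanil were 0 higher and 0 lower in the cycle, 2 and 1 among electron carriers, 5 and 3 among regulators, 1 and 1 among membrane carriers, and 2 and 0 among antioxidant enzymes, where 9.2% and 11.9% of all probe sets passed. Without myclobutanil 01 the regulators counted 4 and 1, against 11.6% and 12.4% of all probe sets, with 1 call. The same fit called 2 regulators and 1 electron carrier higher with propiconazole. With triadimefon it called 2 regulators higher and 1 electron carrier lower. Of the 21729 probe sets it called 670 with myclobutanil, 969 with propiconazole and 611 with triadimefon. With all arrays, the propiconazole counts in the same order were 0 and 1, 1 and 0, 3 and 1, 2 and 0, and 0 and 0, against 7.73% and 6.78% of all probe sets. With triadimefon they were 0 and 1, 0 and 0, 5 and 2, 1 and 0, and 0 and 0, against 7.02% and 6.42%. In the mitochondrial ribosome 10 and 0 passed with myclobutanil, 7 and 1 with propiconazole, and 3 and 4 with triadimefon. The closest to a call were regulators. Pprc1, a coactivator of mitochondrial biogenesis, was above control on all triadimefon arrays, at 0.27, 0.47 and 0.27 against -0.11, -0.08 and 0.00, a difference of 0.4 ± 0.0809 (limma adjusted p = 0.0517). Without myclobutanil 01, which enters the shared estimate of the spread, this difference was called (limma adjusted p = 0.00781, with up to 0.218 when another array was left out), as was that of Pprc1 with myclobutanil, 0.32 (adjusted p = 0.0333). With propiconazole and all arrays, Pprc1 scored 0.3, 0.17 and 0.29, a difference of 0.32 ± 0.0809 (limma adjusted p = 0.089). Tfb1m, a methyltransferase of mitochondrial ribosomal RNA, differed by 0.21 ± 0.0492 with myclobutanil (adjusted p = 0.0557).

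Etfdh, which brings electrons from fatty acid oxidation to ubiquinone, scored 2.03, 1.92 and 2.01 in control and 0.86, 1.63 and 1.79 with myclobutanil. All 3 arrays were below control, with 01 far below, and the difference of -0.56 ± 0.193 was not called (limma adjusted p = 0.139). Without array 01 it was -0.27 ± 0.102 (limma adjusted p = 0.148). The triadimefon arrays, at 1.51, 1.57 and 1.67, and the propiconazole arrays, at 1.72, 1.87 and 1.55, also lay below all controls. With triadimefon the difference was -0.4 ± 0.193 and was not called (limma adjusted p = 0.401). A fit of the control and triadimefon groups alone did call it (limma adjusted p = 0.0365). Sod2, the superoxide dismutase of the matrix, scored 1.70, 1.45 and 1.54 in control and 1.99, 1.76 and 2.44 with myclobutanil. Its difference was 0.49 ± 0.152 (limma adjusted p = 0.11). In the comparison of myclobutanil with propiconazole no gene of these lists was called.

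The promoters of the subunit genes are described because nuclear respiratory factors are known to act on many of them. RefSeq promoter windows of 250 bases before to 50 after the start, on the GRCr8 build, were at hand for 72 of the 80 genes. Each window was searched on both strands for CCGGAAG, the letters bound by GABP and other ETS factors, for AAGATGGCG (YY1), GCATGCGC (NRF1), GGGCGGG (SP1) and TATAAAA (the TATA box); none of these words holds another. CCGGAAG was found in 20 of 72 windows (27.8%), against 8.75% of all 33469 windows and 10.7% of the protein-coding ones. AAGATGGCG was found in 10 (13.9%), against 1.73% and 2.07%, and GCATGCGC in 7 (9.72%), against 2.47% and 3.11%. The SP1 letters were in 25% of the windows, against 22.7% of all and 29.6% of the protein-coding ones, and TATAAAA in 5.56%, against 5.96% and 5.48%. Of the 72 genes, 29 held at least 1 of the first 3 words, and a match is a description and not a site of binding.

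The upstream 250 bases are shown for Atp5if1 and Ndufaf4, which rose, and for Sdhb and Atp5pf, examples of the 5 subunit genes with 2 different words of the first 3 in these bases. Capitals mark the matched letters on either strand, and each sequence reads 5′ to 3′ along the gene.
Atp5if1 (chr5:150026678-150026927, minus strand): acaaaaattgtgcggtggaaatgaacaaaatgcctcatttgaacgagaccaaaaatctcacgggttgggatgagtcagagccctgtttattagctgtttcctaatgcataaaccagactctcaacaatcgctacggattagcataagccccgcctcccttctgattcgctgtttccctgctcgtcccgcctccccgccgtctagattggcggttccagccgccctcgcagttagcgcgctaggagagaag
Ndufaf4 (chr5:43401545-43401794, plus strand): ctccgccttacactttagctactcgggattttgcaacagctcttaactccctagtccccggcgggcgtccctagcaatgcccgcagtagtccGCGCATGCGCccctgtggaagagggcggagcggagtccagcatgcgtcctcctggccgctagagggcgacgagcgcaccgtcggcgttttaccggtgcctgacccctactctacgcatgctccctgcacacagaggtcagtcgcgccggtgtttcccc
Sdhb (chr5:158547684-158547933, plus strand): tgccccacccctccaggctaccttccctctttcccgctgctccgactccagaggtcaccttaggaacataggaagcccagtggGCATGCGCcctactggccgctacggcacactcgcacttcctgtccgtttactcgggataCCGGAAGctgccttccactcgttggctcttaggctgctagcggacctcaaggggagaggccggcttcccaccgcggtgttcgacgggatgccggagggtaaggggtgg
Atp5pf (chr11:37375102-37375351, minus strand): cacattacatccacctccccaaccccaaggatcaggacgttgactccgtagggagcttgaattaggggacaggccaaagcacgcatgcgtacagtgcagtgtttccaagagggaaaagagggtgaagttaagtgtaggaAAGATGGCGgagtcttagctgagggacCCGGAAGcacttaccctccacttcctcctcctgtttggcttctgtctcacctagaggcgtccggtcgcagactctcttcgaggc
The upstream bases of Atp5if1 held none of the ETS, YY1 or NRF1 words. Those of Ndufaf4 held the NRF1 word on both strands in overlapping letters, starting 158 and 156 bases before the start. Sdhb held the NRF1 word 167 and the ETS word 108 bases before the start, and Atp5pf the YY1 word 111 and the ETS word 84 bases before it.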

How the data were processed

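Liver RNA of 12 rats was hybridised to 12 Affymetrix Rat Genome 230 2.0 arrays, 1 liver per array, per the labels' protocols. The authors deposited 1 log-like score per probe set; the summary method and normalization behind it are not stated in the labels or the file, nor is the base of the logarithm. No fold is therefore given. Scores were quantile normalized, 57 control probe sets and the dimmest 30% (9313) were left out, and 21729 were fitted with limma 3.58.1 in R 4.3.3 on 4 group means with an intensity trend and 8 residual degrees of freedom. Two-sided p-values were Benjamini-Hochberg adjusted over all 21729, and the script was tested on simulated data. The number of arrays limits the precision. Each p-value sets a difference against the spread between rats within groups, as limma estimated it over all 4 groups. Arrays with the same replicate number did not deviate together more often than others, so no block was used in the main fit.

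The members and gene lists were chosen with earlier results of these data known. Named are called members, the largest difference each way in each complex and compound, fixed isoform and core genes, and called genes of other lists; values of further genes were chosen after they were seen. Leaving out arrays for the lists of markers and of other genes of the pathway was added after the data were seen. The platform annotation gave the symbols, and 7 probe sets assigned to several genes are not named. Promoters are RefSeq's, on GRCr8; the NRF1 word searched replaced a longer form of it after the counts of that form had been seen. Tables and figures used Python 3.11.15, pandas 2.3.3 and matplotlib 3.10.9.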

Additional observations from a re-analysis of the deposited data

How the results depend on the processing

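Of 23 alternatives, the call of Atp5if1 with myclobutanil was kept in 7 and lost in 16 (limma adjusted p from 0.0277 to 0.196, difference from 0.36 to 0.55). The count of members called with myclobutanil was 0 on the deposited values, after median centring, without a filter on dim probe sets, in a fit of the 2 groups alone and with the replicate number as a block, in which Atp5if1 had adjusted p of 0.0654, 0.0703, 0.0598, 0.196 and 0.0697. In these fits 1, 1, 2, 1 and 2 members were higher and 12, 18, 8, 4 and 7 lower at an unadjusted p under 0.05. Of all probe sets, 3697, 4229, 5844, 2771 and 4264 passed in either direction, in the same order. Those tested numbered 21729, or 31042 without the filter on dim probe sets. With 1 array left out the count of members called ran from 0 to 3. Array weights gave 1 call with triadimefon, Ndufb7. The call of Ndufaf4 was kept in 21, 21 and 17 of 23 alternatives with myclobutanil, propiconazole and triadimefon, and that of Mrpl47 in 11, 23 and 14. No called difference changed sign.

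Medians over genes moved with the scaling. On the deposited values they were, with myclobutanil, -0.121 over all members, -0.118 in complex I, -0.13 in complex IV and -0.131 in complex V; with propiconazole -0.0941 over all members and in complex III, -0.086 in I, -0.0773 in IV and -0.154 in V; and with triadimefon -0.136 over all, -0.122 in I, -0.163 in III, -0.124 in IV and -0.162 in V. After median centring they were, with myclobutanil, -0.142 over all, -0.14 in I, -0.0695 in III, -0.152 in IV and -0.153 in V; with propiconazole -0.0779 over all and in III, -0.0611 in IV and -0.138 in V; with triadimefon -0.126 over all, -0.113 in IV and -0.152 in V; and -0.0326 in IV for myclobutanil against propiconazole. The cause was not tested. With 1 array left out, the complex II median with myclobutanil ran from -0.213 to -0.00473 and that of complex IV from -0.0232 to 0.038. With propiconazole complex III ran from -0.0225 to 0.0403 and complex IV from -0.0259 to 0.0126.

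Probe sets called over the whole array numbered 395 with myclobutanil, 311 with propiconazole, 167 with triadimefon and 0 between myclobutanil and propiconazole. With array weights they were 1668, 1313, 1028 and 343. The fit of the 2 groups alone gave 8, 648 and 621 against control. The replicate block gave 180, 121 and 87 against control. Between the pair of compounds the deposited values and median centring each gave 1, a 50% filter 2, no intensity trend 5 and the mean of a gene's probe sets 6. With 1 array left out the counts ran from 30 to 924, 36 to 969, 6 to 611 and 0 to 29, the highest without myclobutanil 02 for myclobutanil and without myclobutanil 01 for the others. Arrays of different groups with the same number had deviations that correlated at -0.494 to 0.495, with 3 of 18 pairs over 0.1. For those with other numbers this was -0.418 to 0.532, with 13 of 36. Deviations within a group sum to 0, so these correlations cannot exclude handling shared by number.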

Other observations

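The 7 tested probe sets that the annotation assigns to several genes of the same rule, covering 12 genes with no probe set of their own, differed from control by -0.23 to 0.21 with myclobutanil, -0.11 to 0.12 with propiconazole and -0.2 to 0.03 with triadimefon, and none was called by limma (lowest adjusted p 0.175, 0.549 and 0.431). A second probe set of Sdhd differed by -0.25 ± 0.173 with myclobutanil (limma adjusted p = 0.421), against -0.06 ± 0.113 for the one used, and a second probe set of Uqcrc2 by -0.22 ± 0.121 (adjusted p = 0.316), against 0.09 ± 0.112.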
